A study of Mus musculus with 2 samples.

Results

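The 9 genes described here encode the vascular endothelial growth factor (VEGF) ligands Vegfa, Vegfb, Vegfc and Pgf, the receptors Kdr (VEGFR2), Flt1 (VEGFR1) and Flt4 (VEGFR3), and the co-receptors Nrp1 and Nrp2 (neuropilins). They were taken by name, and all 9 were found among the 22401 features of both count matrices. Levels were read in whole hearts of mouse embryos at E11.5, by single-cell RNA sequencing of 1 library per genotype. The library called Control had the genotype Hand2fx/+R26RmTmG/wt, with 1 floxed and 1 intact Hand2 allele and no Cre. The library called H2CKO had the genotype Nfatc1Cre/wtHand2fx/fxR26RmTmG/wt, with both Hand2 alleles floxed and Cre driven from Nfatc1, which is active in the endocardium. Both carried 1 copy of the mTmG reporter, which makes membrane GFP once Cre has acted. The libraries thus differed in Cre and in a floxed allele together, and how many embryos were pooled, and of which sex, is not in the labels.

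VEGF-A signals mainly through Kdr on endothelial cells, and Flt1 binds VEGF-A tightly, signals weakly and limits how much of it reaches Kdr. Vegfb and Pgf bind Flt1, while Vegfc acts on Flt4 and, after cleavage, also on Kdr. Nrp1 and Nrp2 bind some VEGF isoforms and also the class 3 semaphorins, and in the embryonic heart muscle-derived VEGF-A acts on the endocardium and the forming coronary vessels.

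The promoters of Kdr, Flt1 and Vegfa are shown because the comparisons turn on these genes. The receptors differed in balance between the endothelial clusters, and the ligand was lower in H2CKO in every class. In cardiomyocyte-like cells the size of the ligand's difference depended on the cell filter. Each promoter is the stretch of 250 bases before the RefSeq start in build GRCm38.p6, printed 5′ to 3′ on the gene's strand, here the minus strand for all 3. Kdr lies at chr5:75978456-75978705, Flt1 at chr5:147726012-147726261 and the upstream start of Vegfa at chr17:46032378-46032627. In the GENCODE annotation of the same build the genes themselves span chr5:75932827-75978458 (Kdr, ENSMUSG00000062960), chr5:147561604-147726011 (Flt1, ENSMUSG00000029648) and chr17:46016993-46032369 (Vegfa, ENSMUSG00000023951). Capitals mark GGAA, the core bound by ETS factors, or its reverse complement TTCC.
Kdr: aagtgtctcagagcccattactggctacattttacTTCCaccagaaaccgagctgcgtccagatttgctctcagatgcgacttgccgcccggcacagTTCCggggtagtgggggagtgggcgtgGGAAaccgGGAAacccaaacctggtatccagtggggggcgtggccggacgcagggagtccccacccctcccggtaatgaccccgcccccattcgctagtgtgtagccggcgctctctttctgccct
Flt1: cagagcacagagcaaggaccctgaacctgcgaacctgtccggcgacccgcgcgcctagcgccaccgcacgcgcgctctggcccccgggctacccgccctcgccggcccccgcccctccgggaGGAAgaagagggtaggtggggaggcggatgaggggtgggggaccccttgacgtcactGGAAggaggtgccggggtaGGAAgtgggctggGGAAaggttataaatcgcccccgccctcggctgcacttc
Vegfa: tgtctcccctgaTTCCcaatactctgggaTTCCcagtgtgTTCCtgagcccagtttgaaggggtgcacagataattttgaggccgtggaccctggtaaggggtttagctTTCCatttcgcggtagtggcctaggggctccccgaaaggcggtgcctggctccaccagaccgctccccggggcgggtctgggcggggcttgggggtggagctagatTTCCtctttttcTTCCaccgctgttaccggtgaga
Kdr and Flt1 each held 4 such cores and Vegfa 6, against a median of 3 over 32851 promoters of this length, 93.5% of which held at least 1. Nrp1 also held 4, and the other windows held 2 (Flt4 and the second start listed for Vegfa), 1 (Vegfb, Vegfc and Nrp2) or 0 (both starts of Pgf), below that median. The E-box CATCTG, a sequence that HAND factors can bind, occurred on either strand once before Kdr, in none of the other members' windows, and in 14.4% of all promoters. The hypoxia response core ACGTG occurred once, before a downstream start of Vegfa, and in 16.6% of all promoters. That window, chr17:46025164-46025413, lies inside the Vegfa gene, so the match falls in transcribed sequence. These matches are descriptions of letters and not of bound sites.

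After filtering, 8793 Control and 11534 H2CKO cells were left, and the median cell held 16223 and 13430 UMIs (unique molecules counted). Cells were grouped into 21 clusters without using the 9 genes, and 17 clusters were named from marker lists. Endothelial-like cells were 117 in Control and 485 in H2CKO. A further cluster of 258 and 267 cells, led by Stmn2, Wnt4 and Klf2, passed the detection rule for all 12 endothelial markers, but its 10 leading genes held 0 of them and 1 marker of another class, so it stayed unnamed. It is called the second endothelial cluster here for its summed endothelial markers (4278 and 3628 CPM, against 4176 and 4762 CPM in endothelial-like cells). It also held 791 and 572 CPM of neuronal markers, one of which is its leading gene Stmn2, against 13.5 and 16.9 CPM in endothelial-like cells, and their part in its values was not tested. Hand2 was 172 and 13.1 CPM (counts per 1e6 UMIs of the class) in endothelial-like cells, and 257 and 7.81 CPM in the second endothelial cluster. Erythroid marker RNA within these clusters was higher in H2CKO, at 22200 against 39878 CPM in endothelial-like cells and 12802 against 49059 CPM in the second endothelial cluster. Mesenchymal marker RNA there was lower in H2CKO, at 1527 against 486 CPM and 2818 against 1572 CPM. In endothelial-like cells, summed endocardial markers were 1296 CPM in Control and 657 CPM in H2CKO, and vascular markers 68.9 and 277 CPM. In the second endothelial cluster these were 740 and 440 CPM and 49.3 and 49.1 CPM. The part of any of these in the differences below was not tested, apart from an alternative with haemoglobin and mitochondrial genes left out of the CPM totals. The libraries shared 28 barcodes. Each group is 1 library, so no difference has a replicate check, and all 95% intervals are exact and cover counting error only. Levels are CPM and are compared within a gene, since 3′ counts are not scaled by length.

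Vegfa, the main ligand for blood vessel growth, was highest in epicardial-like and cardiomyocyte-like cells. Epicardial-like cells had 94.7 CPM (89.1 to 101) in Control and 54.9 CPM (46.5 to 64.4) in H2CKO. Cardiomyocyte-like cells had 80.3 CPM (77.9 to 82.7) and 45.8 CPM (44.3 to 47.4). The order of the 7 classes was the same in both libraries, the intervals of the first and second class overlapped in H2CKO alone, and those of the cardiomyocyte-like cells and the next class did so in at least 1 library. The second endothelial cluster had 69.7 CPM (62.0 to 78.1) and 37.5 CPM (31.1 to 44.8), against 13.5 CPM (8.80 to 19.7) and 6.37 CPM (4.55 to 8.67) in endothelial-like cells. The 2 endothelial clusters did not overlap in either library; the second also held more cardiomyocyte marker RNA (2196 and 2001 CPM, against 1318 and 1541 CPM), whose part in this was not tested. Erythroid-like cells, taken as the level of free RNA, had 2.87 and 0.97 CPM. Of all Vegfa UMIs, 59.96% in Control and 79.5% in H2CKO came from cardiomyocyte-like cells.

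Vegfa was lower in H2CKO in all 7 classes, although in white blood cell-like cells, with 15 and 9 UMIs, the interval of the ratio took in no change. In mesenchymal-like cells it was 28.3 CPM (26.2 to 30.6) against 10.4 CPM (8.64 to 12.4), with a log2 ratio of −1.11. In CPM alone this was 2.72-fold lower (2.24 to 3.33). Log2 ratios throughout compare H2CKO with Control after 5 was added to each CPM, and so are smaller than the folds, which are of CPM with nothing added, and a gene with at least 20 CPM and 20 UMIs in the higher library was past 2-fold at 1 or more in size. Vegfa was the 1 member of 4 measured well enough that passed 2-fold in mesenchymal-like cells, where 3.81% of 6539 genes did, and 1.48% of those genes had a lower ratio. The log2 ratio was −0.81 in the second endothelial cluster, −0.74 in epicardial-like and −0.75 in cardiomyocyte-like cells. Ratios of all genes were shifted too, with class medians between −0.26 and −0.17, so that 64.6% to 72.1% of genes lay below 0. In cardiomyocyte-like cells 3.50% of genes had a lower ratio than Vegfa. With cells thinned to 5000 UMIs the mesenchymal-like ratio was −0.90, relative to the median gene it was −0.88 and relative to genes of like span −0.97, all short of 2-fold. Summed erythroid markers in mesenchymal-like cells were 11271 CPM in Control and 51849 CPM in H2CKO, and their own mesenchymal markers 5931 and 3272 CPM. With haemoglobin and mitochondrial genes left out of the CPM totals, the Vegfa ratio was −1.07, still past 2-fold. The part of these markers was not tested in any other way.

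Cluster by cluster, Vegfa was measured well enough in 11 clusters with at least 50 cells in each library and was lower in H2CKO in 11 of 11. The log2 ratios ran from −1.20 to −0.29 with a median of −0.81, and 5 clusters were past 2-fold. The highest level was in cluster 17, a cardiomyocyte-like cluster with Gal, Bmp2 and Tbx3 among its top genes, at 213 CPM in Control and 99.0 CPM in H2CKO. Cluster 10, with Rspo3, Sema3c and Bmp4 among its top genes, had 121 and 49.8 CPM. Clusters 1 and 6, led by ventricular and trabecular genes such as Myl2 and Nppa, had 73.7 and 44.9 CPM and 56.0 and 38.4 CPM. In the mesenchymal-like clusters 5 and 7, Vegfa was 29.6 and 10.0 CPM and 27.1 and 10.3 CPM. Clusters 20 and 21, with under 50 cells in 1 library, had 5 and 8 Vegfa UMIs and 54 and 3 UMIs, and they are not counted among the 11.

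**Figure D1:**
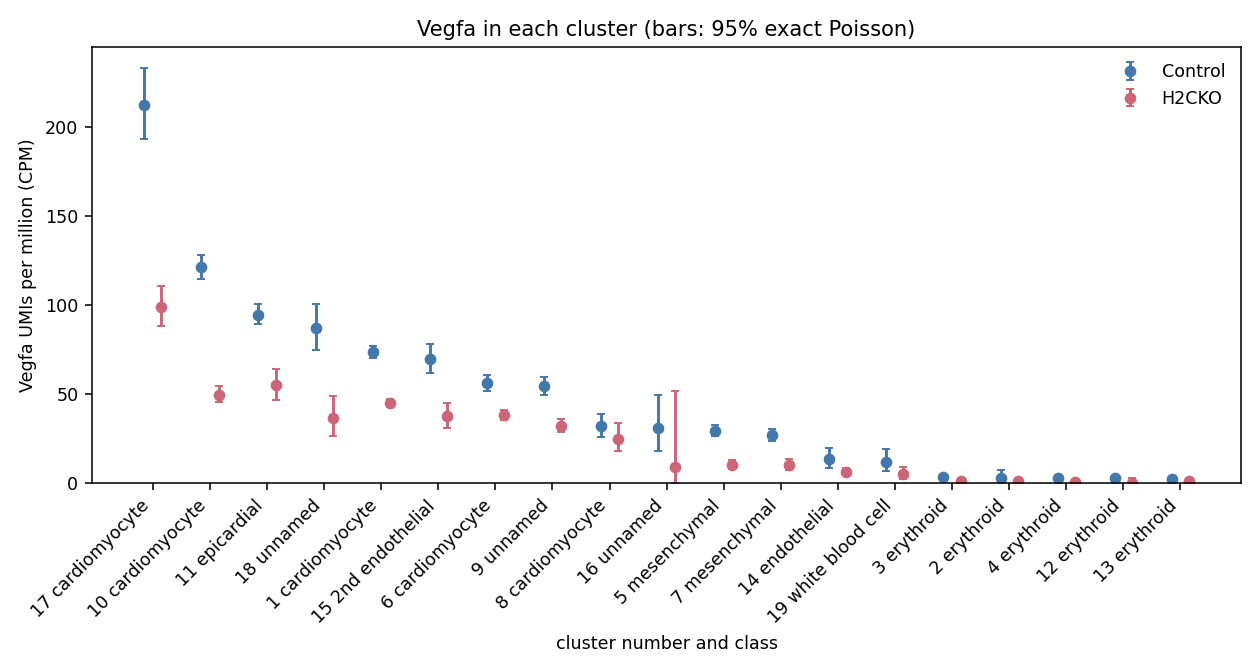
Vegfa level (CPM, y axis) in each cluster with at least 50 cells per library (x axis, cluster number and class), Control in blue and H2CKO in red, with 95% exact Poisson bars. The H2CKO point lies below the Control point in every cluster shown, from 213 against 99.0 CPM in cluster 17 down to the erythroid-like clusters near 0.

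Mitochondrial RNA moved with genotype in the same cells. Its median share was 4.11% in Control and 6.94% in H2CKO cardiomyocyte-like cells, against 2.82% and 3.85% in mesenchymal-like and 2.61% and 3.10% in epicardial-like cells. In endothelial-like cells it was 3.57% and 4.96%, and in the second endothelial cluster 3.67% and 4.93%. Under a strict filter of 1500 genes or more and a mitochondrial share up to 5%, 46.4% of Control but 9.48% of H2CKO cardiomyocyte-like cells remained. Of endothelial-like cells 88.0% and 48.5% remained, and of the second endothelial cluster 83.7% and 50.6%. When all cells past this filter were clustered anew the Vegfa log2 ratio in cardiomyocyte-like cells was −0.04, and with each cell kept in its class it was −0.28. In that subset, which left 101, 82 and 26 H2CKO cells in clusters 1, 6 and 17, cluster 1 had 72.2 CPM (68.1 to 76.5) in Control and 72.3 CPM (61.9 to 84.0) in H2CKO, and cluster 6 had 56.3 CPM (50.6 to 62.5) and 55.1 CPM (43.5 to 68.9). Cluster 17 had 164 CPM (139 to 192) and 151 CPM (115 to 196). Cluster 10 differed from these, at 113 CPM (105 to 122) and 45.3 CPM (34.0 to 59.1). In mesenchymal-like and epicardial-like cells, classes kept, the same subset gave log2 ratios of −1.17 and −0.76. The filter kept 95.2% of Control and 90% of H2CKO mesenchymal-like cells and 97.3% and 87.0% of epicardial-like cells, so it could change little there. In cluster 10, with 77 H2CKO cells and 54 H2CKO Vegfa UMIs left, Vegfa stayed lower in H2CKO. A lower level in H2CKO was not detectable in clusters 1, 6 and 17, where the intervals overlapped. Cluster 8 overlapped with and without the filter, at 23.9 and 26.8 CPM with it and 31.9 and 25.1 CPM without. Keeping each cell in its class was chosen after seeing the data.

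**Figure D2:**
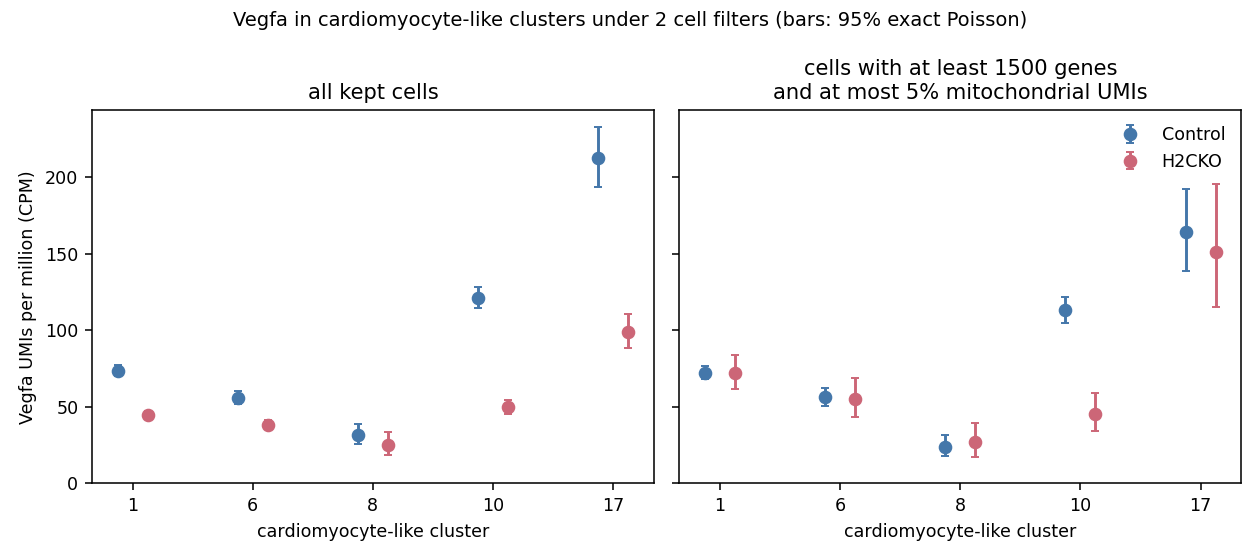
Vegfa level (CPM, y axis) in 5 cardiomyocyte-like clusters (x axis, cluster number), in all kept cells (left) and in cells past the strict filter (right), with 95% exact Poisson bars. On the right the libraries overlap in clusters 1, 6, 8 and 17, while cluster 10 remains at 113 against 45.3 CPM.

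Vegfb, a ligand of Flt1 known for its high level in muscle with oxidative metabolism, was highest in cardiomyocyte-like cells, at 266 CPM (261 to 270) in Control and 253 CPM (249 to 257) in H2CKO. The next class, epicardial-like cells, had 76.8 and 86.0 CPM, and its intervals did not overlap those of cardiomyocyte-like cells. Cardiomyocyte-like cells held 71.6% and 80.2% of all Vegfb UMIs. The log2 ratio there was −0.07, and 0.10 relative to the median gene. In endothelial-like cells Vegfb was 56.5 CPM (46.4 to 68.1) and 39.6 CPM (34.9 to 44.9), with a log2 ratio of −0.46, and −0.21 relative to the median gene. Its sign turned, to 0.15 with each cell named by its own markers and to 0.03 with both endothelial clusters pooled.

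Vegfc, the ligand of Flt4 and a driver of lymphatic and coronary growth, was highest in mesenchymal-like cells, at 53.4 CPM (50.4 to 56.5) and 56.4 CPM (52.2 to 60.8). Endothelial-like cells came next, with 38.9 CPM (30.6 to 48.7) in Control and 54.8 CPM (49.1 to 60.9) in H2CKO (log2 ratio 0.45). The second endothelial cluster had 28.5 CPM (23.7 to 34.1) and 37.2 CPM (30.8 to 44.5) (log2 ratio 0.33). Vegfc was the only ligand that was higher in H2CKO in both endothelial clusters, and 92.2% of genes in endothelial-like cells had a lower ratio. In the cells of the second endothelial cluster with a UMI of the endocardial markers Npr3 or Nfatc1 (221 and 184 cells), however, it was 29.5 CPM (24.3 to 35.4) and 30.8 CPM (24.4 to 38.3). In the 37 and 83 cells without one it was 18.7 CPM (7.54 to 38.6) and 64.8 CPM (46.1 to 88.6). Median depths were 12966 and 10804 UMIs in cells with a marker UMI and 8752 and 6478 UMIs in cells without. Among cells with one, Nfatc1 was 310 CPM in Control and 199 CPM in H2CKO, and Npr3 63.0 and 22.7 CPM. The split may therefore not part like cells in the 2 libraries. Split the same way, the 103 and 320 endothelial-like cells with a marker UMI had 38.8 CPM (30.2 to 49.1) and 48.7 CPM (42.5 to 55.4), which overlap, and the 14 and 165 cells without one had 39.3 CPM (14.4 to 85.6) and 72.1 CPM (59.6 to 86.3). The rank of the first 3 classes was the same in both libraries, and neighbouring classes among them overlapped in at least 1 library. In cardiomyocyte-like cells Vegfc was low, at 12.6 CPM (11.7 to 13.6) and 10.2 CPM (9.46 to 10.9). Within the mesenchymal-like class, cluster 7, with Postn and Inhba among its top genes, had 64.8 and 77.9 CPM, and cluster 5, with Sox9 and Hapln1, had 43.0 and 37.3 CPM.

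Pgf, a ligand that binds Flt1 and not Kdr, was measured well enough in the second endothelial cluster alone. It had 46.3 CPM (40.1 to 53.2) in Control and 39.7 CPM (33.1 to 47.2) in H2CKO there, and it was found in 34.1% and 22.1% of cells, whose median depths were 12120 and 8868 UMIs. In erythroid-like cells 0.29% and 0.18% had a Pgf UMI. Endothelial-like cells had 2 and 21 UMIs, or 1.04 CPM (0.13 to 3.74) and 3.34 CPM (2.07 to 5.11). The next class was mesenchymal-like cells, at 7.18 and 7.27 CPM. The ligand thus separated the 2 endothelial clusters in both libraries.

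**Figure D3:**
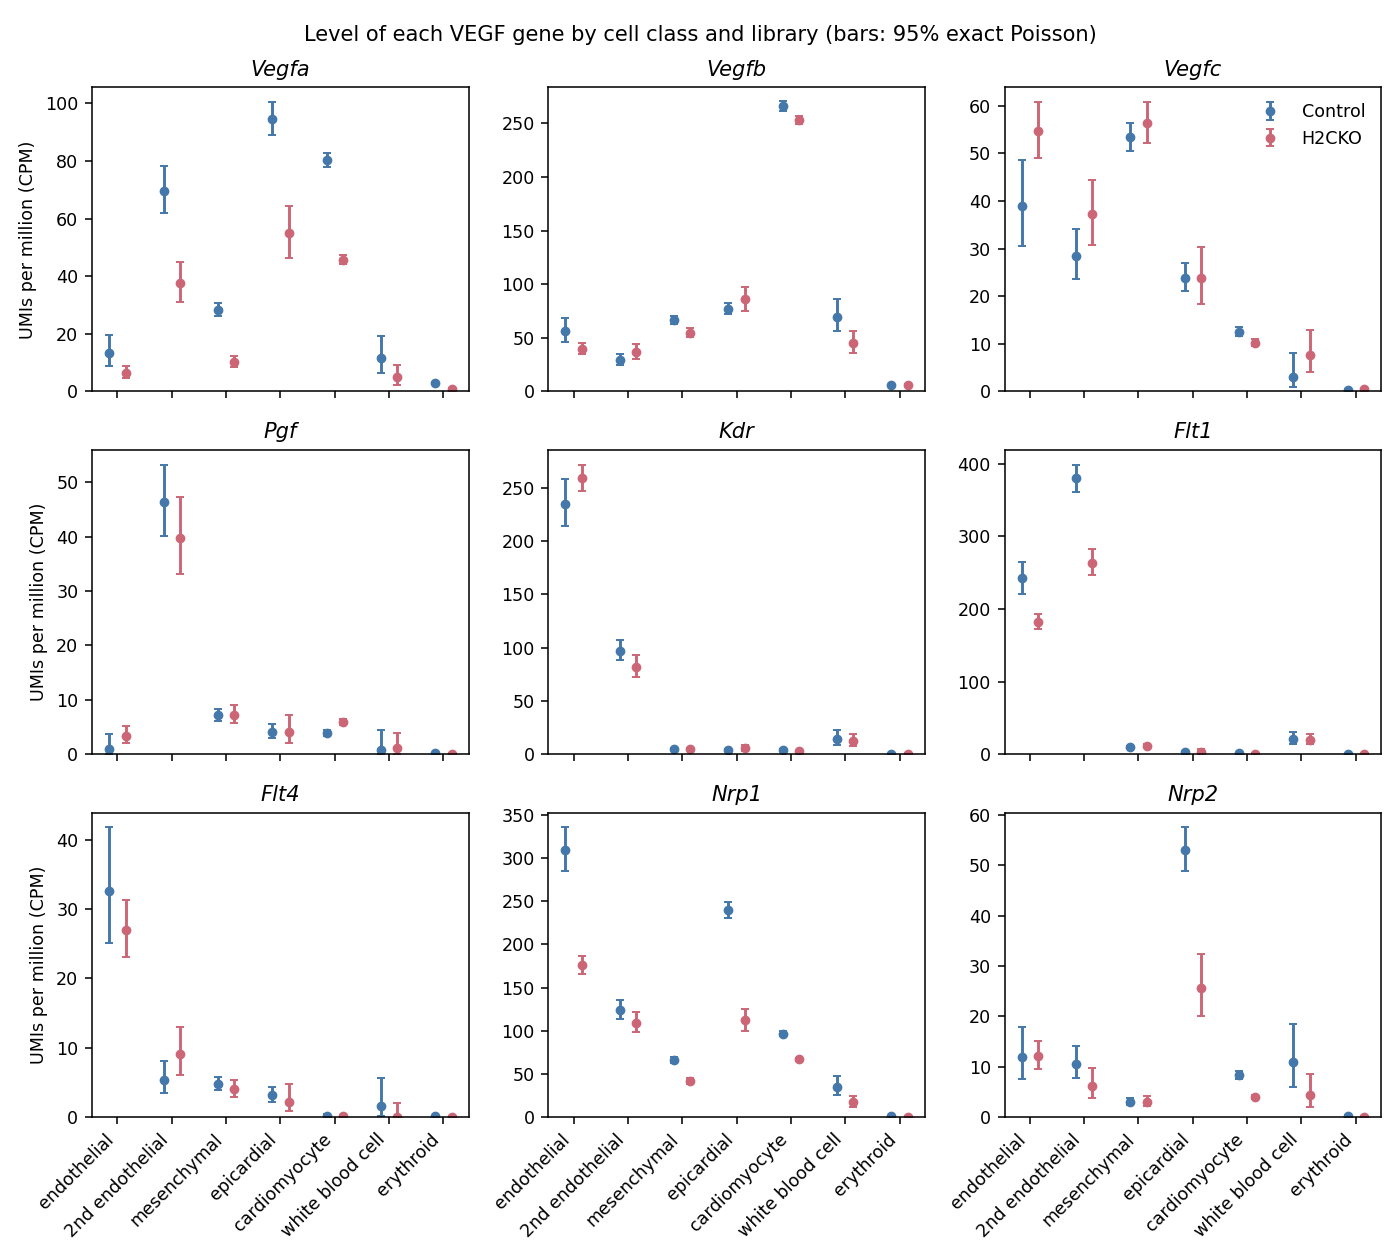
Level of each of the 9 genes (CPM, y axis, a separate scale per gene) in 7 cell classes (x axis), Control in blue and H2CKO in red, with 95% exact Poisson bars. Vegfa is lower in H2CKO in every class, Kdr and Flt1 are highest in the 2 endothelial clusters, and Nrp1 is also high in epicardial-like cells.

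Kdr, the main signalling receptor for VEGF-A, was highest in endothelial-like cells and was close between genotypes. It had 235 CPM (214 to 258) in Control and 259 CPM (247 to 272) in H2CKO (log2 ratio 0.14). The second endothelial cluster had 97.3 CPM (88.2 to 107) and 82.2 CPM (72.6 to 92.7), and here the log2 ratio was −0.23. Relative to the median gene these ratios were 0.39 and 0.01, and with thinned cells that of the second endothelial cluster was −0.76. The 2 clusters did not overlap in either library. White blood cell-like cells followed at 14.1 and 12.6 CPM, and all other classes were under 6 CPM. Inside other classes, 2 clusters stood out with Kdr but little Flt1. Cluster 20, a mesenchymal-like cluster of 39 and 75 cells with Isl1 and Rgs5 among its top genes, had 135 CPM (96.3 to 185) and 55.3 CPM (36.2 to 81.1) of Kdr and 3 and 1 UMIs of Flt1. Cardiomyocyte-like cluster 17 had 44.2 CPM (35.7 to 54.1) and 21.7 CPM (16.9 to 27.4) of Kdr and 3 and 6 UMIs of Flt1. These clusters were singled out after their values were seen.

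Flt1, which binds VEGF-A more tightly than Kdr does, had the opposite order. It was highest in the second endothelial cluster, at 380 CPM (362 to 399) in Control and 264 CPM (246 to 282) in H2CKO (log2 ratio −0.52), and in CPM alone 1.44-fold lower (1.32 to 1.57). Endothelial-like cells had 242 CPM (221 to 265) and 182 CPM (172 to 193) (log2 ratio −0.40), and in CPM alone 1.33-fold lower (1.19 to 1.48). Relative to the median gene these ratios were −0.28 and −0.14. The Flt1 span of 164 kb is longer than that of 94.3% of genes. Long genes had lower ratios throughout, with Spearman's rho of −0.45 between span and log2 ratio across 6325 genes of endothelial-like cells. Against the 200 genes nearest in span, the Flt1 ratio was 0.26 in endothelial-like cells and 0.00 in the second endothelial cluster, so its direction depends on that choice, which was made after seeing the data.

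The balance of Kdr and Flt1 UMIs separated the 2 endothelial clusters. Kdr made up 49.3% (46.0 to 52.6) of Kdr plus Flt1 UMIs in Control and 58.7% (56.8 to 60.5) in H2CKO endothelial-like cells. In the second endothelial cluster it made up 20.4% (18.7 to 22.2) and 23.8% (21.3 to 26.4). The Kdr to Flt1 odds were 3.79-fold higher (3.20 to 4.51) in endothelial-like cells than in the second endothelial cluster in Control and 4.56-fold higher (3.88 to 5.36) in H2CKO. Between libraries the odds were 1.46-fold higher (1.25 to 1.70) in H2CKO in endothelial-like cells and 1.22-fold higher (1.02 to 1.45) in the second endothelial cluster. That last direction did not hold with thinned cells, where Kdr (log2 ratio −0.76) was lower by more than Flt1 (−0.42). The share itself reads capture of 2 different transcripts, so only its differences are compared. Kdr spans 45.6 kb against 164 kb for Flt1, and relative to genes of like span the endothelial-like log2 ratios were 0.62 for Kdr and 0.26 for Flt1. Endocardial and vascular marker levels of endothelial-like cells also differed between libraries. In those with an Npr3 or Nfatc1 UMI the Kdr share was 49.3% in Control and 59.0% in H2CKO, and in those without one 49.5% and 57.5%. The part of gene span and of cluster makeup in the shift between libraries was not tested.

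A GFP UMI was also found without Cre, in 19.7% (12.9 to 28.0) of Control endothelial-like cells and 22.5% (17.5 to 28.1) of the second endothelial cluster, so it is an impure sign of Cre activity. In H2CKO these shares were 61.0% (56.5 to 65.4) and 87.3% (82.7 to 91.0), beside 16.2% of cardiomyocyte-like cells. Of the H2CKO endothelial-like cells, 296 had a GFP UMI and 189 had none, with median depths of 11263 and 9796 UMIs. Kdr was 281 CPM in cells with GFP and 217 CPM in cells without, and Flt1 was 187 and 172 CPM. Nrp1 was 176 CPM in both. The Kdr share of Kdr plus Flt1 UMIs was 59.98% (57.8 to 62.2) and 55.7% (52.3 to 59.1). The same share in the second endothelial cluster, with 233 cells with and 34 without GFP, was 23.5% (20.9 to 26.1) and 29.3% (18.1 to 42.7), so the order was the other way and the intervals overlapped. Flt1 there was 271 CPM (253 to 290.4) and 173 CPM (124 to 234). Hand2 in endothelial-like cells was 9.42 and 20.1 CPM. Since cells without Cre can hold a GFP UMI and cells with the deletion can lack one, the split is not one of deleted against intact cells.

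**Figure D4:**
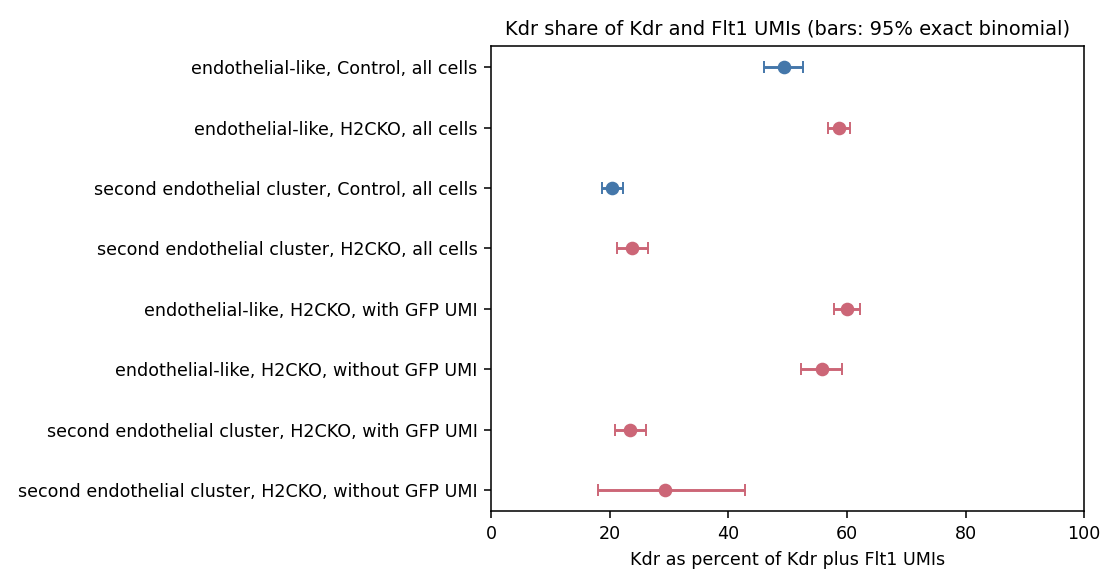
Kdr as a percent of Kdr plus Flt1 UMIs (x axis) in the 2 endothelial clusters, by library and, for H2CKO, by presence of a GFP UMI, with 95% exact binomial bars. Endothelial-like cells lie between 49.3% and 59.98% and the second endothelial cluster between 20.4% and 29.3%.

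Flt4, the receptor of Vegfc and later a lymphatic marker, was measured well enough in endothelial-like cells alone, at 32.6 CPM (25.1 to 41.8) in Control and 26.9 CPM (23.0 to 31.3) in H2CKO. The intervals overlapped, and the log2 ratio of −0.24 was 0.02 relative to the median gene. The second endothelial cluster had 5.38 CPM (3.41 to 8.07) and 9.06 CPM (6.07 to 13.0), below endothelial-like cells in both libraries. With cells thinned to 5000 UMIs, 16 of the 111 endothelial-like cells of Control had Flt4, and 58 of the 457 of H2CKO. Of these, 9 and 43 also had Kdr and 13 and 34 also had Flt1, beside 67 and 308 of all thinned cells with Kdr and 81 and 260 with Flt1. So few cells with Flt4 do not show whether it is found together with the other receptors more often than apart.

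Shares of cells with a UMI were compared after thinning each cell to 5000 UMIs, which left 111 and 457 endothelial-like cells. Kdr was found in 60.4% (50.6 to 69.5) of Control and 67.4% (62.9 to 71.7) of H2CKO cells, and without thinning in 77.8% and 84.9%. Flt1 was found in 73.0% (63.7 to 81.0) and 56.9% (52.2 to 61.5), and without thinning in 88.9% and 77.1%. Kdr and Flt1 were found together in 45.9% (36.4 to 55.7) and 40.04% (35.5 to 44.7). So the shares of Kdr overlapped between libraries while those of Flt1 did not. In erythroid-like cells, which should lack both, 0.66% and 0.77% had a Kdr UMI and 0.66% and 0.40% a Flt1 UMI without thinning, at median depths of 18308 and 13220 UMIs. None of the 5 receptor and neuropilin genes was found in 4.50% and 5.25% of thinned endothelial-like cells. In the second endothelial cluster that share was 11.2% of 242 and 20.7% of 237 cells.

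Nrp1, the co-receptor that holds VEGF-A to Kdr and also binds semaphorin 3A, was above its erythroid-like level of 1.22 and 0.53 CPM in every other class. It was highest in endothelial-like cells, at 310 CPM (286 to 336) in Control and 176 CPM (166 to 187) in H2CKO (log2 ratio −0.80), and in CPM alone 1.76-fold lower (1.59 to 1.95). That ratio was −0.20 with each cell named by its own markers, −0.24 with both endothelial clusters pooled and −0.22 relative to genes of like span. Epicardial-like cells had 240 CPM (231 to 249) and 112 CPM (100.1 to 126) (log2 ratio −1.06), and in CPM alone 2.13-fold lower (1.90 to 2.41). Summed cardiomyocyte markers in these cells were 4388 and 9759 CPM, erythroid markers 10977 and 41985 CPM and their own epicardial markers 3346 and 2588 CPM. With haemoglobin and mitochondrial genes left out of the CPM totals, the epicardial-like Nrp1 ratio was −1.001, past 2-fold by little. The part of these markers in the result was not tested in any other way. The second endothelial cluster had 124 CPM (114 to 135) and 109 CPM (97.9 to 121), with overlapping intervals and a log2 ratio of −0.18, or 0.06 relative to the median gene. In cardiomyocyte-like cells the levels were 96.4 and 66.9 CPM, and in mesenchymal-like cells 65.7 and 41.4 CPM. The library intervals did not overlap in these 2 classes, but relative to genes of like span the log2 ratios of −0.50 and −0.61 became −0.14 and −0.003. Under the strict filter the cardiomyocyte-like ratio went the other way, to −1.07 with new clusters and −1.17 with classes kept, both past 2-fold. Over single clusters Nrp1 was lower in 12 of 14, with log2 ratios from −1.06 to 0.71 and a median of −0.65. The exceptions were the shallow clusters 8 (31.6 and 32.5 CPM) and 16 (30 and 10 UMIs). The thinned share of endothelial-like cells with a UMI was 77.5% (68.6 to 84.9) and 58.6% (54.0 to 63.2).

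Nrp2, which pairs with Flt4 and binds semaphorin 3F, was highest in epicardial-like cells, at 53.1 CPM (49.0 to 57.6) in Control and 25.6 CPM (19.97 to 32.4) in H2CKO. The log2 ratio was −0.93, short of the size rule, although in CPM alone Nrp2 was 2.07-fold lower (1.62 to 2.70). It was past 2-fold with a pseudocount of 1 CPM (−1.02) and at Leiden resolution 0.5 (−1.105). Endothelial-like cells had 11.9 CPM (7.55 to 17.9) and 12.1 CPM (9.53 to 15.1). Within them the Nrp2 level was higher in cells without a UMI of Npr3 or Nfatc1, at 72.1 CPM in 14 Control cells against 6.75 CPM in 103 cells with one, from 11 and 12 UMIs and at median depths of 8959 and 14439 UMIs. In H2CKO it was 21.4 CPM in 165 cells against 8.83 CPM in 320 cells, at median depths of 9200 and 11333 UMIs. In the second endothelial cluster the levels without and with a marker UMI were 10.7 and 10.5 CPM in Control and 3.33 and 6.93 CPM in H2CKO. These rest on 4 and 41 UMIs and on 2 and 18 UMIs, too few to tell whether such a difference was present. Cluster 20 had 135 and 42.6 CPM and cluster 10 had 31.5 and 18.1 CPM. Nrp1 spans 145 kb and Nrp2 115 kb, and relative to genes of like span the epicardial-like ratios were −0.45 for Nrp1 and −0.32 for Nrp2, with no change of sign.

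Of the 5 members measured well enough in epicardial-like cells, Nrp1 alone was past 2-fold, against 6.03% of 6340 genes. It was short of 2-fold relative to the median gene (−0.85), with thinned cells (−0.88), without doublet removal (−0.79), relative to genes of like span (−0.45) and, by little, with the strict filter and new clusters (−0.998). In endothelial-like cells 0 of 6 members were, against 10.1% of 6328 genes, and in the second endothelial cluster 0 of 7, against 4.16% of 6590 genes. In cardiomyocyte-like cells it was 0 of 3, against 0.843% of 5574 genes, and in white blood cell-like cells 0 of 3, against 9.08%. No member was measured well enough in erythroid-like cells, where 8.02% of 2007 genes were past 2-fold. The median log2 ratio of the members was −0.32 in endothelial-like cells and −0.20 in the second endothelial cluster, beside −0.26 and −0.24 for all genes. It was −0.74 in epicardial-like and −0.50 in cardiomyocyte-like cells, beside −0.21 and −0.17. The members' shares past 2-fold rest on 3 to 7 genes a class and are too few to set apart from these backgrounds.

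**Figure D5:**
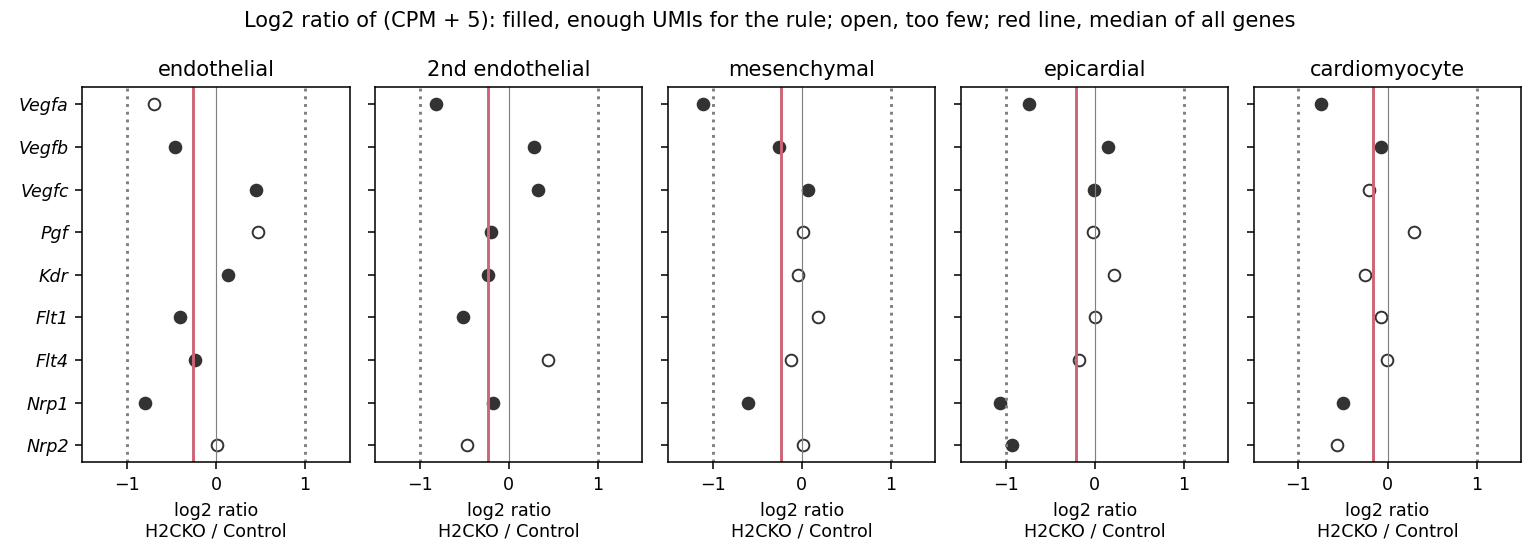
Log2 ratio of (CPM + 5), H2CKO over Control (x axis), for the 9 genes (y axis) in 5 classes; filled points had enough UMIs for the size rule, open points too few, dotted lines mark 2-fold and the red line the median of all genes. Vegfa lies left of the red line in all 5 classes, while Vegfc lies right of it in 4 of 5.

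The genes with the most similar profile to each member over 38 points (19 clusters by 2 libraries) followed the same divisions. For Flt1 they were Fgd5 (Pearson r 0.99), Gngt2 and Plvap (0.97 each), and for Kdr Epas1, Cav2 and Efna1 (0.90 each). For Vegfb they were the respiratory genes Ndufa13 (0.99), Sdhc and Atp5a1 (0.98 each), and for Vegfa Col4a5, Stox2 and Dag1 (0.94 to 0.96). For Nrp1 they were Col4a1, Myo1c and Ppic (0.96 to 0.97), for Vegfc Asb4, Fscn1 and Kctd17 (0.94 to 0.95), for Flt4 Csgalnact1, Kctd12b and Bmx (0.91 to 0.93), for Pgf Angptl2, Ifitm10 and Slc35e4 (0.87 to 0.90), and for Nrp2 Dlk1, Mylk and Itm2a (0.80 to 0.84). Among members, r was 0.86 for Kdr and Flt1, 0.83 for Vegfa and Vegfb, and 0.08 for Vegfa and Flt1. The points share libraries and depth, so these values are descriptions.

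Pathway genes around the receptors were read from 7 lists in endothelial-like cells, with the caution that this cluster's makeup differed: its summed endocardial markers (Npr3, Nfatc1, Cdh11 and Plvap) were 1296 CPM in Control and 657 CPM in H2CKO, and its vascular markers (Cldn5, Fabp4, Apln, Aplnr and Sox17) 68.9 and 277 CPM. Their part in the results was not tested. The counts below are of genes measured well enough for the size rule. They stand against 10.1% of all such genes past 2-fold in this class, and a share over so few genes is not set apart from it. Of the 14 listed genes that respond to VEGF in endothelium, 5 were measured well enough, and 0 of these were past 2-fold. Their median log2 ratio was 0.32 against −0.26 for all genes, while in the second endothelial cluster it was −0.47 over 7 genes measured well enough against −0.24. The highest of them were Mcam, at 102 and 106 CPM, and Rcan1, a calcineurin inhibitor, at 69.4 and 87.7 CPM, followed by the Notch ligand Dll4, at 29.0 and 46.5 CPM. Of 24 genes of receptor partners and signal transduction, 2 were lower past 2-fold, the adaptor Gab1 (55.4 and 9.71 CPM, log2 ratio −2.04) and the integrin Itgav (28.0 and 8.60 CPM, −1.28). None of the 24 was higher past 2-fold, and 2 of 24 is near the share of all genes.

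Of the 6 genes listed for VEGF-C processing and a further ligand, 2 were measured well enough, and both were lower past 2-fold. They were the proprotein convertases Furin (49.7 and 14.5 CPM, −1.49) and Pcsk5 (28.5 and 6.53 CPM, −1.54). The counts that follow are also of genes measured well enough. Sema3a, a Nrp1 ligand, was the 1 of 3 neuropilin partners past 2-fold (26.9 and 6.21 CPM, −1.51). Of 8 genes for VEGF binding and matrix retention, Sulf2, which trims heparan sulfate, was lower (31.1 and 6.69 CPM, −1.63). Of 6 oxygen control genes, Hif1a was lower (154 and 70.7 CPM, −1.07). Of 12 receptor transcription genes, Etv2, an ETS factor of early endothelium, was lower (31.1 and 3.50 CPM, −2.09). Sox17 (18.7 and 93.5 CPM, 2.06) and Sox18 (42.5 and 108 CPM, 1.25) were higher. Sox17 is also one of the vascular markers, and the median of this list was −0.14. In the second endothelial cluster 10 of the 13 genes of that list were measured well enough. Of these, 0 were past 2-fold, against 4.16% of all genes there.

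Pathway genes past 2-fold in the other classes are named after their values were seen, and the share of all genes past 2-fold was 4.16% in the second endothelial cluster, 3.81% in mesenchymal-like, 6.03% in epicardial-like and 0.843% in cardiomyocyte-like cells. In the second endothelial cluster these were the semaphorin receptor subunit Plxna4 (55.0 and 17.8 CPM), the heparan sulfate carrier Gpc1 (39.1 and 10.9 CPM) and the angiogenesis inhibitor Thbs1 (273 and 120.0 CPM), all lower in H2CKO. In mesenchymal-like cells Furin (85.1 and 35.6 CPM), Adamts1 (112 and 49.3 CPM) and Thbs1 (292 and 133 CPM) were among those lower. Thbs1 was thus past 2-fold lower in both, with log2 ratios of −1.15 and −1.10. In epicardial-like cells, where Nrp1 was also lower, Pcsk5 (287 and 107 CPM), Sema3d (214 and 85.6 CPM) and Sulf1 (199 and 77.9 CPM) were lower, as were Hs6st1, Itgav, Arnt and Nr2f2 with log2 ratios from −1.19 to −1.01. The small heat shock protein gene Hspb1 was higher there, at 229 and 618 CPM. In cardiomyocyte-like cells the semaphorin gene Sema3c (59.9 and 27.3 CPM) was lower and no other listed gene passed 2-fold.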

How the data were processed

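Counts were UMIs per gene and barcode from 10x Genomics 3′ libraries, deposited by the authors without normalisation, as whole numbers. The submitters' processing notes name Cell Ranger 5.0.1, Seurat 4 and build GRCm38.p6. The authors also deposited embedding coordinates, a score without a unit, per the file headers; they served only to mark a subset of barcodes. The 9 genes and all lists were chosen with earlier results of these data known. Of 22401 features, 22285 matched a symbol.

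The cell filter asked for 500 genes or more and a mitochondrial share up to 10% (14114 and 13885 barcodes at the start). Scrublet (scanpy 1.11.5) removed 1048 Control doublets by its automatic threshold. It marked 0 in H2CKO, so the highest 5% of scores, 607 cells, were removed there, and doublets may remain. The 2000 most variable genes, without the members, gave 30 components and 21 Leiden clusters (leidenalg 0.10.2, resolution 1, 15 neighbours per library). A name needed at least 3 markers in 10% of cells and a median log2 fold of 0.25, no more markers of another class than of its own among the top 10 genes, and, for a shallow cluster, at least 1 of its own there. The largest cluster of a class could differ between libraries: of cardiomyocyte-like cells the shallow cluster 8 held 32.0% in Control and cluster 1 held 42.7% in H2CKO, and of erythroid-like cells cluster 4 held 29.1% and cluster 2 held 41.2%.

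Each class of each library gave 1 sum of UMIs per gene, scaled to CPM by the class total. The 95% intervals are exact: Poisson (CPM), Clopper-Pearson (shares) and conditional binomial (ratios), from scipy 1.17.1. With 1 library per group no test was run. The size rule was also run on simulated counts, drawn with counting error only and with changes larger than 2-fold. That run cannot show how far libraries of the same genotype would differ. All 9 members are named, with the 3 most similar genes to each, and from each list the genes past 2-fold in endothelial-like cells, or up to 3 of the highest level where none was. Gene spans came from GENCODE M21. Alternatives numbered 13 planned and 4 chosen after seeing the data. Not every gene of the lists is reported here.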

Additional observations from a re-analysis of the deposited data

Results flagged for a closer look

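Vegfc differed in opposite directions between cell classes. Its log2 ratio was 0.45 in endothelial-like cells and −0.21 in cardiomyocyte-like cells, a difference of 0.66, and the counting intervals of the 2 ratios lay on opposite sides of no change. The second endothelial cluster, with 0.33, differed from cardiomyocyte-like cells by 0.54. In its cells with an Npr3 or Nfatc1 UMI, however, Vegfc was 29.5 CPM in Control and 30.8 CPM in H2CKO. In endothelial-like cells with such a UMI it was 38.8 and 48.7 CPM, with overlapping intervals. Relative to the median gene the cardiomyocyte-like ratio was −0.05, since all genes there had a median of −0.17, while the endothelial ratios were 0.70 and 0.57. Neither difference was tested, since each group is 1 library, and Vegfc in cardiomyocyte-like cells was below the level of 20 CPM that the size rule needs.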

How the results depend on the processing

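Of 411 alternative log2 ratios (25 ratios under up to 17 alternatives), 347 moved by less than the counting interval allows and 64 by more. In the second endothelial cluster Kdr and Nrp1 changed sign relative to the median gene and to genes of like span (Kdr 0.01 and 0.21, Nrp1 0.06 and 0.27). Signs also turned for Vegfb in 4 classes (endothelial-like 0.15, second endothelial cluster −0.19, epicardial-like −0.12 and cardiomyocyte-like 0.10 at the farthest), Flt4 in endothelial-like cells (0.47), Flt1 in endothelial-like cells and the second endothelial cluster (0.26 and 0.00), Pgf (0.04) and Vegfc in epicardial-like cells (0.62). The count of members past 2-fold in endothelial-like cells was 0 as reported. It was 2 with each cell named by its own markers (Vegfa −1.403 and Pgf −1.11), 1 with both endothelial clusters pooled (Vegfa −1.39) and 1 relative to genes of like span (Vegfc 1.10). In the second endothelial cluster the count went from 0 to 1 with cells thinned to 5000 UMIs (Vegfa −1.11). There Kdr was −0.76 and Nrp1 −0.62 when thinned. Over all named classes together the count of 2 became 0 relative to the median gene and 0 when thinned, 1 with a filter at 100 CPM, 1 relative to genes of like span, 4 with a pseudocount of 1 CPM and 4 with cells named by their own markers. Without doublet removal, Kdr (1.95) and Flt1 (1.34) were past 2-fold higher in epicardial-like cells and Nrp1 was not; the cause was not tested. Under the strict cell filter with new clusters, Nrp1 in cardiomyocyte-like cells was −1.07 and Vegfa there was −0.04, against −0.75 as reported. Vegfa in mesenchymal-like cells ran from −1.36 to −0.88 and Nrp1 in epicardial-like cells from −1.18 to −0.45. Nrp2 in epicardial-like cells ran from −1.105 to −0.32, past 2-fold at Leiden resolution 0.5 and with a pseudocount of 1 CPM. The highest class of each member was the same in all alternatives except pooled clusters and cells named by their own markers, where Pgf and Flt1 moved to endothelial-like and Nrp1 to epicardial-like cells. Pooling, span, the strict filter with classes kept and leaving out 3 small or shallow clusters (20, 8 and 21), which kept both calls, were chosen after seeing the data. No paired analysis was possible because each group is 1 library. Outside the classes where they are high, Pgf, Flt4 and Nrp2 are mostly below the 20 CPM that the size rule needs.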
